A study of Mus musculus with 2 samples.

Results

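The globin genes of the mouse encode the protein chains of haemoglobin, and they were described here in megakaryocyte-erythroid progenitors (MEP), bone marrow cells that can give rise to red cells and to platelet-forming megakaryocytes. The set was defined by gene symbol and holds 8 genes, of which 7 were matched among 43346 annotated genes: the adult alpha genes Hba-a1 and Hba-a2, the embryonic alpha-like gene Hba-x, the adult beta genes Hbb-bs and Hbb-bt, and the embryonic beta-like genes Hbb-bh1 and Hbb-y. Ahsp, the gene of the alpha-haemoglobin stabilising protein, is not analysed here. Total RNA longer than 200 bases was sequenced from 2 libraries, replicate 1 and replicate 2, each made from 100 primary MEP of male adult C57BL/6J mice aged 5 to 6 weeks, with spike-in RNAs added. No treatment, deletion or transgene is given in the labels. The labels give the libraries separate biosamples but the same donor record, so their spread may be in part technical. With 1 group and 2 libraries there was no condition to test, and no p-value was computed.

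Haemoglobin is a tetramer of alpha-like and beta-like chains, each carrying a heme. In the mouse the alpha-like genes lie in a cluster on chromosome 11 and the beta-like genes in a separate cluster on chromosome 7. Primitive red cells of the yolk sac use the embryonic genes of each cluster, and definitive red cells use the adult genes. Transcription of the adult genes rises steeply during erythroid maturation under GATA1, KLF1 and their partners, and the alpha and beta chains must be made in near balance because free chains are toxic.

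The genes were placed on mm10 (GRCm38). In the alpha cluster, on the plus strand, Hba-x lies at chr11:32276400-32278116, Hba-a1 (ENSMUSG00000069919) at chr11:32283511-32284465 and Hba-a2 (ENSMUSG00000069917) at chr11:32296489-32297298. In the beta cluster, on the minus strand, Hbb-y lies at chr7:103851749-103853216, Hbb-bh1 at chr7:103841637-103843164, Hbb-bs (ENSMUSG00000052305) at chr7:103826534-103828096 and Hbb-bt (ENSMUSG00000073940) at chr7:103812524-103813996. Transcription therefore runs from the embryonic towards the adult genes in both clusters.

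The coding sequences are shown first because the similarity within each adult pair sets what the reads can tell apart. Hba-a1 and Hba-a2 differed at 1 of 426 coding bases of the reference, the change C381T from Hba-a1 to Hba-a2, counted from 1 at the first base of the start codon. Hbb-bs and Hbb-bt differed at 1 of 441 coding bases, the change C417T from Hbb-bs to Hbb-bt. Both changes fall on the third base of a codon. The windows below surround these positions in coding exons, at coding bases 361 to 401 of the alpha-like genes. Capitals mark the base that differs within the adult pair and, in Hba-x, every base that differs from Hba-a1.
Hba-a1, chr11:32284323-32284363, plus strand: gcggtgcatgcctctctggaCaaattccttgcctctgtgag
Hba-a2, chr11:32297140-32297180, plus strand: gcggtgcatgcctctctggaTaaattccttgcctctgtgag
Hba-x, chr11:32277940-32277980, plus strand: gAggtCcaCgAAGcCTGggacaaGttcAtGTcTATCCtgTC
The Hba-x window differs from that of Hba-a1 at 20 bases, against the single base of Hba-a2. Over the whole coding sequence Hba-x was identical to Hba-a1 at 61.7% of bases.

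For the beta-like genes the windows hold coding bases 397 to 437, with capitals at the base that differs within the adult pair and, in the embryonic genes, at each base that differs from Hbb-bs.
Hbb-bs, chr7:103826672-103826712, minus strand: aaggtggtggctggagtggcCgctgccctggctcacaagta
Hbb-bt, chr7:103812663-103812703, minus strand: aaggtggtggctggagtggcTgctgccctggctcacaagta
Hbb-bh1, chr7:103841759-103841799, minus strand: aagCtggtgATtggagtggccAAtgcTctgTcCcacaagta
Hbb-y, chr7:103851881-103851921, minus strand: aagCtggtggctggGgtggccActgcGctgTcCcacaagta
Within this window Hbb-bh1 differs from Hbb-bs at 8 bases and Hbb-y at 6. Over the whole coding sequence Hbb-bh1 was identical to Hbb-bs at 73.9% of bases, Hbb-y to Hbb-bs at 74.4%, and the embryonic genes to each other at 76.4%. Of the 50-base words in the full transcripts, 67.5% of those in the main Hba-a1 transcript and 86.9% of those in the main Hba-a2 transcript also occurred in the partner gene. The shares were 65.8% for the main Hbb-bs transcript and 58.3% for Hbb-bt. None of these words occurred in any annotated gene outside the pair, and every such word of the embryonic genes was found in its own gene alone. The main Hbb-bs transcript searched for words has 628 bases, against 778 in the deposited quantification.

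All 4 adult globin genes were detected in both libraries, in the range of 48.8 to 168.5 TPM, a unit of relative abundance that corrects read counts for transcript length and sequencing depth. Summed over all transcripts of a gene, each adult alpha gene had more TPM than each adult beta gene in each library. Hba-a1 had 118.3 TPM in replicate 1 and 116.4 in replicate 2, from 1119.66 and 2053.72 estimated counts. Hba-a2 had 110.2 and 168.5 TPM, from 1012.34 and 2526.28 estimated counts. Over all transcripts Hba-a1 was thus nearly level between the libraries, and Hba-a2 was above Hba-a1 in replicate 2 only. Counting protein-coding transcripts alone, Hba-a1 had 41.97 and 73.12 TPM, and Hba-a2 was above it in both libraries. Hbb-bt, at 70.4 and 97.6 TPM, was then above Hba-a1 in both libraries too. Hbb-bs had 60.1 and 48.8 TPM, from 620.32 and 880.76 estimated counts. Hbb-bt had 70.4 and 97.6 TPM, from 877.68 and 2023.24 estimated counts, and was above Hbb-bs in both libraries. Among 21461 protein-coding nuclear genes ranked by TPM, Hba-a1 stood at 404 in replicate 1 and 506 in replicate 2, and Hba-a2 at 446 and 315. Hbb-bt stood at 799 and 649, and Hbb-bs at 977 and 1506. The median protein-coding gene had 0.38 and 0.36 TPM, so each adult globin was far above it.

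**Figure D1:**
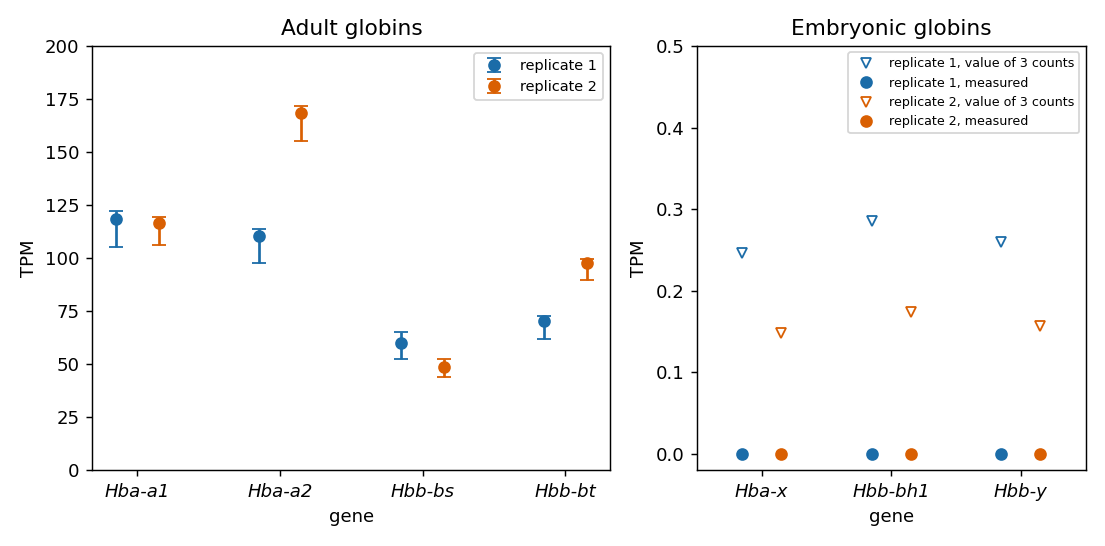
TPM of each adult globin (left, dots with the deposited 95% credibility interval) and each embryonic globin (right, dots, with open triangles at the TPM that 3 counts would give), by library. The adult genes lie between 48.8 and 168.5 TPM, and the embryonic genes are at 0 in both libraries.

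The estimated counts of the single adult genes were fractional, whereas the pair sums were whole, so the reads of a pair were divided between its members and the count sums do not depend on that division. TPM sums still depend on how reads were divided among transcripts of unequal length. The counts of Hba-a1 and Hba-a2 summed to 2132 in replicate 1 and 4580 in replicate 2, and those of Hbb-bs and Hbb-bt to 1498 and 2904. The alpha pair summed to 228.5 and 284.9 TPM, a mean of 256.7 ± 39.9 (SD, n = 2). The beta pair summed to 130.5 and 146.4 TPM, a mean of 138.4 ± 11.2 (SD, n = 2). The alpha sum was above the beta sum by more than the spread of either. Together the 4 genes made up 0.0895% and 0.0947% of the TPM of all protein-coding nuclear genes, and 140 and 132 single genes each exceeded their joint level.

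Counting error was small beside the difference between the alpha and beta pairs. Per 1000000 protein-coding counts, the alpha pair had 157.7 counts in replicate 1 (exact 95% Clopper-Pearson interval 151.1 to 164.6) and 177.5 in replicate 2 (172.4 to 182.7). The beta pair had 110.8 (105.3 to 116.6) and 112.6 (108.5 to 116.7). Intervals of the alpha pair did not overlap between the libraries, and those of the beta pair did. Sequenced reads are not independent molecules, so these intervals cover counting error only. In RNA from pooled cells, fewer globin-expressing cells and less globin RNA per cell cannot be told apart.

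The alpha to beta ratio was 1.75 in replicate 1 and 1.95 in replicate 2 on the TPM scale, a mean of 1.85 ± 0.139 (SD, n = 2). On the scale of estimated counts, without correction for length, it was 1.42 (exact 95% interval 1.33 to 1.52) and 1.58 (1.51 to 1.65). Alpha RNA exceeded beta RNA in both libraries on both scales.

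Over all annotated transcripts, each pair divided differently into its members in the libraries. Hba-a2 took 48.2% of alpha TPM in replicate 1 and 59.2% in replicate 2, and the ratio of Hba-a2 to Hba-a1 was 0.932 and 1.45. Hbb-bt took 54.0% and 66.7% of beta TPM, and the ratio of Hbb-bt to Hbb-bs was 1.17 and 2.00. With protein-coding transcripts alone, the ratio of Hba-a2 to Hba-a1 was 2.63 and 2.30, so that its direction turned in replicate 1, and the ratio of Hbb-bt to Hbb-bs was 4.74 and 5.43. The libraries then lay closer together in both ratios, relative to their size. Leaving out retained-intron transcripts lowers Hba-a1 and Hbb-bs only. That of Hba-a2 was assigned 0 counts, and Hbb-bt has no such transcript annotated. These ratios therefore depend on the annotation and on how reads were divided. The deposited 95% credibility interval of Hba-a1, 105.2 to 122.2 TPM in replicate 1, overlapped that of Hba-a2, 97.6 to 113.8 TPM. In replicate 2 the interval of Hba-a1, 106.1 to 119.5 TPM, lay below that of Hba-a2, 155.1 to 171.6 TPM. Read assignment is less certain for these genes than for most. The deposited posterior SD of the count was the same for both members of a pair, 24.1 and 41.58 counts for the alpha genes and 22.38 and 27.44 for the beta genes, in replicates 1 and 2. Of the 5114 and 6378 protein-coding genes with 500 to 5000 counts, 87.0% and 88.5% had a posterior SD of 0. As a percentage of its count, the SD of Hbb-bs, 3.61% and 3.12%, was above that of 99.5% and 99.2% of such genes.

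Part of the adult globin signal was assigned to transcripts that keep an intron. The spliced coding transcript of Hba-a1 (ENSMUST00000093209) had 41.97 TPM in replicate 1 and 73.12 in replicate 2. A second Hba-a1 transcript (ENSMUST00000142555), annotated as retaining an intron, had 76.31 and 43.26 TPM, so the order of these transcripts was opposite in the libraries, with credibility intervals that did not overlap in either. Of its 494 bases, the retained-intron transcript holds 113 of the first Hba-a1 intron, so most of its sequence is exon. Total RNA was sequenced, and unspliced RNA was not separated from retained-intron transcripts. The corresponding retained-intron transcript of Hba-a2 had 0 counts in both libraries, and the full 110.2 and 168.5 TPM of Hba-a2 went to its spliced transcript. These retained-intron transcripts of Hba-a1 and Hba-a2 have the same length, 494 bases, and differ at 1 base of the reference, so few reads can tell them apart. The spliced coding transcript of Hbb-bs had 14.87 and 17.96 TPM, below the 45.23 and 30.83 TPM of the retained-intron transcript (ENSMUST00000131960) in each library. Hbb-bt has a single annotated transcript.

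Summed over each pair, retained-intron transcripts made up 33.4% of alpha TPM in replicate 1 and 15.2% in replicate 2, and 34.6% and 21.1% of beta TPM. In counts the shares were 28.2% (exact 95% Clopper-Pearson interval 26.2 to 30.1) and 12.0% (11.0 to 12.9) for alpha, and 27.4% (25.2 to 29.8) and 15.7% (14.4 to 17.1) for beta. Both pairs had the higher share in replicate 1, by more than counting error. The intervals leave out the uncertainty of dividing reads between spliced and retained-intron transcripts, which share exon sequence. Across 3388 genes with at least 5 TPM in both libraries and an annotated retained-intron transcript, the median share was 16.4% and 15.8%, so the general level differed little between the libraries. By gene, the share of Hba-a1, 64.5% and 37.2%, was above that of 95.1% and 79.1% of these genes, and that of Hba-a2 was above 0%. These single-gene ranks depend on how reads were divided within the alpha pair. The pair as a whole, at 33.4% and 15.2%, lay below the 90th percentile of these genes, 52.7% and 52.5%. The share of Hbb-bs, 75.3% and 63.2%, was above that of 98.0% and 94.8% of these genes. Hbb-bt has no annotated retained-intron transcript, so this rank also depends on how reads were divided within the pair. The beta pair as a whole, at 34.6% and 21.1%, lay below the same 90th percentile. The deposited tables used the M4 annotation and the intron labels come from M21. The transcript length was the same in both for 8 of 12 globin transcripts. Both of these Hbb-bs transcripts and those of Hbb-bh1 and Hbb-y differ in length, so their M21 form is not the one quantified. The retained-intron transcript of Hbb-bs has 549 bases as quantified and 344 in M21.

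**Figure D2:**
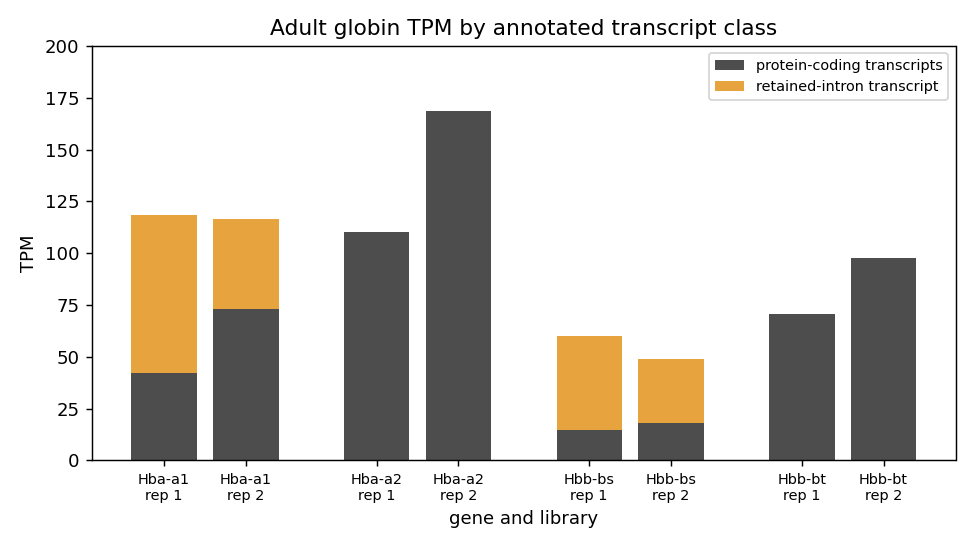
TPM of each adult globin gene by library, as stacked bars divided into protein-coding transcripts (dark) and the retained-intron transcript (light), with no error drawn. The retained-intron part of Hba-a1 and Hbb-bs is larger in replicate 1, and the protein-coding part of all 4 genes is larger in replicate 2.

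No embryonic globin was detected. Hba-x (zeta globin), Hbb-bh1 and Hbb-y (epsilon-y globin) each had 0 counts in replicate 1 and in replicate 2. For Hba-x, 3 counts would have given 0.246 TPM in replicate 1 and 0.148 in replicate 2. Against this floor the adult alpha pair was at least 927-fold and at least 1922-fold higher than Hba-x. The deposited upper 95% credibility bounds of Hba-x were wider, 0.397 and 0.242 TPM, and the alpha pair was 575-fold and 1179-fold above those. Against floors of 0.286 and 0.173 TPM, the adult beta pair was at least 457-fold and at least 844-fold higher than Hbb-bh1. Against floors of 0.260 and 0.157 TPM it was at least 502-fold and at least 933-fold higher than Hbb-y. The deposited upper bounds of Hbb-bh1 and Hbb-y lay slightly below their floors in both libraries. The floor of 3 counts was applied per library and covers counting error only. The adult genes therefore made up all globin counts of both clusters: the theta genes Hbq1a and Hbq1b and the beta-like Hbb-bh0, Hbb-bh2 and Hbb-bh3 also had 0 counts in each library.

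Promoter sequences are shown next because the embryonic and adult genes differ in level by such a margin while carrying related short motifs. RefSeq promoters on GRCm38.p6, from 250 bases before to 50 after the start, were matched for 6 of the genes, all but Hbb-bh1, and searched on both strands for 4 motifs. The KLF-type motif, CACCC, is the core of sites bound by KLF1. The NF-Y-type motif is CCAAT. The GATA-type motif, bound by GATA factors, is GATAA. The TATA-type motif is TATAA. Capitals mark matches on the gene's strand in the windows, which are written 5′ to 3′, and no match shown overlaps another.
Hba-a1, chr11:32283566-32283595, plus strand: agagcaagcacaaaccagCCAATgagaact
Hba-a2, chr11:32296383-32296412, plus strand: agagcaagcacaaaccagCCAATgagaact
Hba-x, chr11:32276491-32276520, plus strand: ctGATAAcaggctcCACCCtgcaagccccc
Hbb-bs, chr7:103827993-103828022, minus strand: gccaCACCCtggtaagggCCAATctgctca
Hbb-bt, chr7:103813987-103814016, minus strand: gtaaCACCCtggcattggCCAATctgctca
Hbb-y, chr7:103853279-103853308, minus strand: gaccacgggtcaggctgaCCAATagcttca
In the 5 promoters other than Hba-x, the NF-Y-type motif began at -88 in Hba-a1, -91 in Hba-a2, -76 in Hbb-bs, -75 in Hbb-bt and -83 in Hbb-y, counted from the RefSeq start. The Hba-x promoter held no NF-Y-type motif in either direction.

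The windows of the TATA region lie 40 to 11 bases before the RefSeq start, and that of Hbb-y holds no TATA-type match.
Hba-a1, chr11:32283632-32283661, plus strand: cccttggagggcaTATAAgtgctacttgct
Hba-a2, chr11:32296452-32296481, plus strand: ttggagggcaTATAAgtgctacttgctgca
Hba-x, chr11:32276560-32276589, plus strand: tgaccatgtgtaTATAAaggagacactggg
Hbb-bs, chr7:103827939-103827968, minus strand: agggcagagcaTATAAggtgaggtaggatc
Hbb-bt, chr7:103813934-103813963, minus strand: cagcattgggtaTATAAagctgagcagggt
Hbb-y, chr7:103853218-103853247, minus strand: tgtctgtgaagcataaaaggccaccacttc
The TATA-type motif was found 35 to 20 bases before the start in 5 of the 6, all but Hbb-y, and in 3.17% of 32851 promoters of the same length. On either strand anywhere in the promoter, the KLF-type motif occurred in 6 of 6 and in 57.5% of all promoters, and the GATA-type motif in 6 of 6 and in 25.4%. The NF-Y-type motif occurred in 5 of 6 and in 37.4%, and the TATA-type motif in 5 of 6 and in 24.9%. The KLF-type, NF-Y-type and TATA-type motifs together on the gene's strand occurred in the 4 adult globin promoters, in neither embryonic one, and in 1.06% of all promoters. A match is a run of letters and not a measured binding site.

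The adult alpha promoters were nearly the same sequence: Hba-a1 and Hba-a2 shared an unbroken run of 297 bases of the 300 in each promoter. The longest run shared by Hbb-bs and Hbb-bt was 14 bases. An unbroken run is not a share of identical bases, so it cannot be compared with the 1 base by which their coding sequences differ. The M21 start of the main transcript lay before the RefSeq start by 161 bases in Hba-a1, 200 in Hba-x and 73 in Hbb-bt, by 3 in Hba-a2, by 9 in Hbb-y and by 0 in Hbb-bs, so motif positions hold for the RefSeq starts alone.

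**Figure D3:**
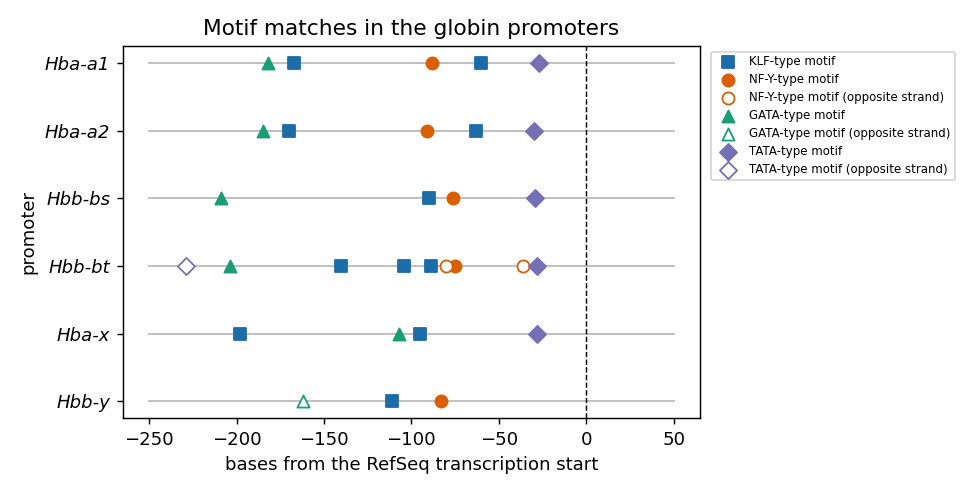
Positions of motif matches in the promoters of 6 globin genes, in bases from the RefSeq transcription start (dashed line). Filled symbols lie on the gene's strand and open symbols on the opposite one; Hba-x has no NF-Y-type match and Hbb-y no TATA-type match.

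The libraries differed more in some globin genes than in others, though within the range of genes at large. Over 11438 genes with a mean of at least 1 TPM, the difference in log2(TPM + 1), replicate 2 minus replicate 1, centred on a median of 0.18, with an SD of 0.80 across genes. The pseudocount of 1 hardly affects genes at globin levels. The difference was -0.02 for Hba-a1, 0.61 for Hba-a2, -0.30 for Hbb-bs and 0.46 for Hbb-bt, with a median over the 4 genes of 0.22. Relative to the median of all genes, Hba-a1 was at -0.20, Hba-a2 at 0.43, Hbb-bs at -0.47 and Hbb-bt at 0.28. The alpha sum differed by 0.32 and the beta sum by 0.16. After scaling to protein-coding genes, the alpha difference was 0.14 and the beta difference turned to -0.02.

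The deposited credibility intervals were separate between the libraries for 2 of the 4 adult genes, Hba-a2 and Hbb-bt, both higher in replicate 2, against 59.5% of the 11438 genes. In that direction the share of all genes was 44.3%. A difference of more than 2-fold after centring was found for 0 of the 4, against 10.3% of all genes. The globin genes did not stand apart from this background in either count.

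**Figure D4:**
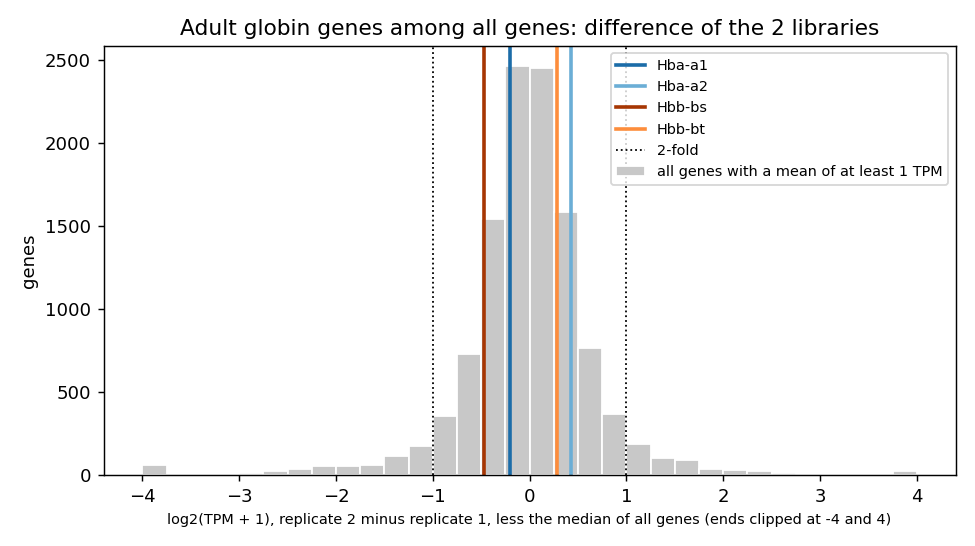
Histogram of the log2(TPM + 1) difference, replicate 2 minus replicate 1 and less the median of all genes, over 11438 genes with a mean of at least 1 TPM (values past the ends of the axis are counted in the outermost bars). Coloured lines mark the 4 adult globin genes, which lie between -0.47 and 0.43, inside the dotted lines at 2-fold.

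Most genes that act on or with globin were detected. Of 13 regulators of globin genes, 12 reached 1 TPM in each library, and the median level over the list was 80.2 TPM (replicate 1) and 93.4 TPM (replicate 2). By comparison, 44.2% of protein-coding nuclear genes reached 1 TPM in both. The highest were Myb, a progenitor transcription factor, at 187.6 and 208.4 TPM, Lmo2, at 159.9 and 203.0 TPM, and Ldb1, at 159.3 and 203.0 TPM. LMO2 and LDB1 bridge GATA1 and TAL1 at globin regulatory elements. Gata1 itself had 77.5 and 100.2 TPM, and Klf1, the activator of adult beta globin, had 80.3 and 93.4 TPM. Bcl11a, a repressor of embryonic and foetal globin genes, had 80.2 and 105.9 TPM. Lin28b, an RNA-binding protein of foetal haematopoiesis, was the gene under 1 TPM, at 0.11 and 0 TPM. Gata1, Klf1, Bcl11a and Lin28b were named after their values were seen.

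Heme synthesis enzymes were detected with 1 exception. Of 9 enzymes, 8 reached 1 TPM in each library, and their median over the list stood at 49.6 and 57.7 TPM. Alad had 132.5 and 145.8 TPM, and Urod 92.2 and 143.1 TPM, both enzymes of the middle steps of the pathway. Alas2, the erythroid form of the first enzyme, had 0.88 and 0.07 TPM, and Alas1, the form found in all cells, had 8.13 and 12.5 TPM. The adult alpha pair was above every enzyme of this list in both libraries. Both Alas genes were named after their values were seen.

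Genes of globin protein quality control, which fold, protect or remove unpaired chains, were all detected: 7 of 7 matched genes reached 1 TPM in each library, around a median of 63.6 and 60.6 TPM. The general chaperone Hspa8 had 1464.98 and 1607.14 TPM, the antioxidant Prdx2 414.6 and 422.8 TPM, and the mitochondrial chaperone Hspa9 147.6 and 127.9 TPM. Each of these acts on many proteins, and any action on globin was not measured here.

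**Figure D5:**
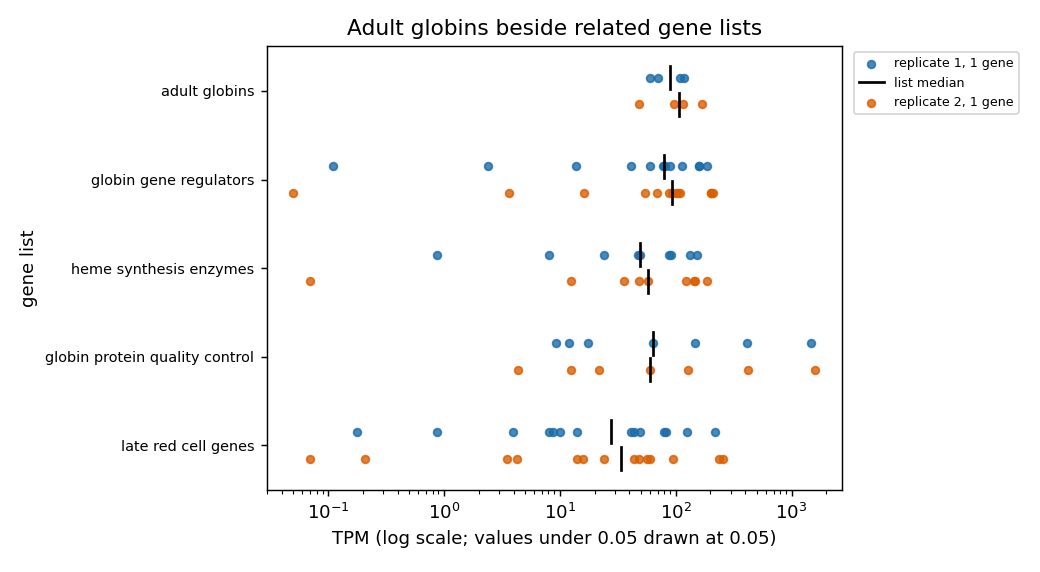
TPM (log axis) of each gene of the adult globins and of related lists, with a dot per gene and library and a black bar at the list median; values under 0.05 are drawn at 0.05. The medians of the regulators, 80.2 and 93.4 TPM, lie within the range of the adult globins, and the late red cell genes are spread from under 1 to over 200 TPM.

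Markers of later red cells varied widely beside the globins. Of 14 genes of this list, 12 reached 1 TPM in each library, around a median of 27.5 and 34.0 TPM. The red cell membrane genes Ermap, at 219.7 and 237.9 TPM, and Kel, at 125.2 and 258.7 TPM, were highest, followed by Tspo2 at 79.3 and 95.5 TPM. Slc4a1, the band 3 anion exchanger of the red cell membrane, had 0.18 and 0.21 TPM, and was named after its values were seen. Of 8 megakaryocyte markers, 3 reached 1 TPM in each library, near the 44.2% of all protein-coding nuclear genes that did so. Their sum was 21.2 and 30.1 TPM, and Ppbp had 0 counts in both libraries. Itga2b, the CD41 gene, was the highest of them at 11.5 and 14.5 TPM, followed by Vwf at 4.55 and 6.99 TPM and Gp1ba at 1.48 and 4.91 TPM.

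Markers of other blood cells differed between the libraries in which the globins were measured. The 8 neutrophil markers summed to 1882 TPM in replicate 1 and 6.39 in replicate 2, where 5 of them were at 0. S100a8 had 781.8 and 5.81 TPM, S100a9 677.4 and 0.52 TPM, and Ngp 182.5 and 0 TPM. The 8 B cell markers summed to 7.14 TPM in replicate 1, where 2 were at 0, and to 127.4 in replicate 2. Igll1 had 0.43 and 41.8 TPM, Vpreb1 0 and 32.5 TPM, and Cd79a 0.62 and 13.9 TPM. The adult globin sum was 359.0 and 431.3 TPM in the same libraries, and the part of these cells in it was not tested. Replicate 2 was the deeper library, with 51510347 estimated counts against 30016974, and protein-coding nuclear genes took 25799923 and 13518448 of these.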

How the data were processed

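Total RNA was sequenced from 2 libraries of 1 group, MEP, with replicate numbers from the labels. A README deposited with the tables names mm10 and GENCODE M4 as the assembly and annotation of the authors' quantification; its aligner and quantifier are not stated in any source at hand. Expected counts, as deposited, are estimates that can be fractional. TPM was computed by the authors over all features with a length correction, so other abundant RNA lowers every value. FPKM columns were deposited too and left unused. The authors gave the percent of gene TPM per transcript, which was recomputed here from transcript TPM. The deposited signal columns are bounds of 95% credibility intervals, and the deposited score columns are posterior SDs of counts.

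Gene identifiers without version were matched to GENCODE M21 (GRCm38) for symbols, biotypes and positions, and 884 annotated genes had no symbol. Promoters came from the RefSeq table on GRCm38.p6. Ahsp had no matching entry. Members and lists were chosen with earlier results of these data known, and nothing is tested on them. In each list the 3 genes of highest mean TPM were named, with all genes of the globin clusters and the globins outside them; further names are marked as chosen afterwards, and 1 gene that the rule names is not reported here. Differences between libraries are log2(TPM + 1), over genes with a mean of at least 1 TPM. Intervals are exact Clopper-Pearson at 95%, from rounded estimated counts, and the floor is 3 counts. The software was pandas 2.3.3, numpy 2.4.6, matplotlib 3.10.9 and scipy 1.17.1 under Python 3.11.15, with R 4.3.3, edgeR 4.0.16 (TMM factors) and DESeq2 1.42.0 (size factors) for scaling alternatives only. Alternatives were CPM, scaling to protein-coding genes, other pseudocounts and filters, each library alone, and, chosen after seeing the data, protein-coding transcripts only and posterior mean counts. The calls of a 2-fold difference and of separate intervals were tested on simulated data, and the other calculations were not.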

Additional observations from a re-analysis of the deposited data

How the results depend on the processing

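The alpha pair sum was above the beta pair sum under every scale tried. In CPM, the alpha and beta means were 80.0 and 53.1 and their ratio 1.5, since length is not corrected. Scaled to protein-coding genes they were 597 and 323 TPM. Counting protein-coding transcripts only, which was added once the data had been seen, gave 197 and 100.4 TPM. Under it Hba-a2 was 2.63 and 2.30 times Hba-a1, and Hbb-bt was 4.74 and 5.43 times Hbb-bs in replicates 1 and 2. It lowered Hba-a1 and Hbb-bs only, so these ratios depend on the annotation and on how reads were divided. The alpha difference between libraries, 0.32 on the log2 scale, was 0.14 after scaling to protein-coding genes, 0.12 with TMM, 0.12 with DESeq2 size factors and 0.66 with protein-coding transcripts only. The beta difference, 0.16, was -0.018, -0.0265, -0.027 and 0.43 in the same order. Its sign depends on the scaling, which moves all genes together. Counting protein-coding transcripts only is not a scaling, and the median difference of all genes under it was 0.18. With each library alone, alpha ranged from 228.5 to 284.9 TPM, beta from 130.5 to 146.4 TPM and the ratio from 1.75 to 1.95. No member passed 2-fold without the filter, with a pseudocount of 0.1, with posterior mean TPM or with TMM factors, the alternatives run for that count. The shares of all genes kept were 3.7%, 14.5%, 8.75% and 7.22% in that order. With so few members, a count of 0 does not set them apart from these shares. The planned values for Ahsp were not run. No paired analysis was possible because there is 1 group. Depth limits the embryonic genes to the floors given, and read sharing limits the split within each adult pair.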

Other observations

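Globins that do not carry oxygen in red cells were at or near 0. Mb (myoglobin), Cygb (cytoglobin) and Ngb (neuroglobin) had 0 counts in both libraries. Adgb (androglobin) had 32 counts in replicate 1, or 0.72 TPM, and 0 counts in replicate 2, so 1 library carried all of its signal.

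Genes that flank the alpha-globin cluster were expressed at lower levels than the adult alpha genes. Of 7 listed neighbours, 6 reached 1 TPM in each library, around a median of 13.1 and 14.9 TPM. Only 4 of the 7 lie on chromosome 11 in the mouse, so this count and median include genes that do not flank the cluster. Nprl3, whose introns hold the main alpha-globin enhancers, had 26.9 and 21.5 TPM, against 228.5 and 284.9 TPM for the alpha pair. Snrnp25, a spliceosome component, had 23.4 and 21.1 TPM. Luc7l, which lies on chromosome 17 in the mouse, was the highest of the list at 38.4 and 50.2 TPM.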
